A study of Homo sapiens with 6 samples.

Results

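The genes for 10 subunits of RNA polymerase II were examined for peaks of SON and HMGB2: POLR2A, POLR2B, POLR2C, POLR2D, POLR2E, POLR2F, POLR2G, POLR2H, POLR2I and POLR2L. They are 10 of the 19974 protein-coding genes on chromosomes 1 to 22 and X in the RefSeq table of GRCh38.p14. A peak was counted for a gene when it overlapped the annotated span of the gene or the 5 kb on either side. The genes were chosen by their peaks in these lists, the rank and fold of the HMGB2 peak at POLR2E among them, so the presence and strength of the peaks are given as a description, with no test.

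RNA polymerase II transcribes all protein-coding genes. POLR2A and POLR2B encode the large subunits that form the active site, POLR2C the subunit on which assembly of the core begins, and POLR2D and POLR2G the stalk that contacts the emerging RNA. POLR2I encodes a small subunit involved in transcript fidelity, and POLR2E, POLR2F, POLR2H and POLR2L encode subunits that RNA polymerases I and III also contain. SON is a scaffold protein of nuclear speckles, bodies rich in splicing factors near which many highly transcribed genes lie. HMGB2 is a chromatin protein that bends DNA and is known to be lost from nuclei as fibroblasts enter senescence.

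The data came from ChIPmentation, in which a transposase tags chromatin with sequencing adapters while it is bound to an antibody. All samples were IMR90 cells, a fibroblast line derived from fetal human lung. The 4 groups, with 1 peak list each, were SON without treatment, SON at day 3 of ICM, SON at day 6 of ICM and HMGB2 without treatment. ICM is not spelled out in the labels. Cells for SON were fixed with formaldehyde, and cells for HMGB2 with EGS before formaldehyde, so target and fixation cannot be told apart between the SON and HMGB2 lists. Not analysed here were an HMGB2 input and an HMGB2 sample titled with DSG.

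Since each group is a single list, no difference between conditions has a replicate check. The lists held 22362, 11158 and 5583 SON lines (untreated, 3 days and 6 days) and 6013 HMGB2 lines, and the sequencing depth behind them is unknown. The strength of a peak is the authors' −log10 p. It was used only to rank peaks within their own list, where rank 1 is the strongest and the percentile is the percentage of lines with a lower value. Each SON line was merged from 2 replicates and carries the lower of their 2 values, together with a global IDR, the estimated share of irreproducible peaks among those at least as good. Each HMGB2 line carries a fold enrichment over the background of the peak caller. Peaks do not measure expression. Of the fibroblast markers 5 of 6 carried an untreated SON peak, against 1 of 5 epithelial, 1 of 4 blood and 2 of 3 endothelial markers and 57.1% of all protein-coding genes. The median percentile of the fibroblast marker peaks was 30.8, and 1 of the 6 had a SON peak at 3 days and 1 at 6 days, where 41% and 21.5% of all genes did.

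Promoter sequences from RefSeq (GRCh38.p14) were available for 8 of the 10 genes, all but POLR2G and POLR2I, as 250 bases before and 50 bases after each annotated start. The following 5 are shown because the results turn on them. POLR2E held the strongest untreated SON peak and the strongest HMGB2 peak of the 10 genes, POLR2H has an upstream start without a peak and a downstream start with a SON peak in every SON list, POLR2F had a SON peak in every SON list and an HMGB2 peak, and POLR2D held the weakest SON peak. They are written 5′ to 3′ on the strand of the gene, and capitals mark matches to the motifs GGGCGG (bound by SP and KLF factors), CGGAAG (ETS factors), TGCGCA (NRF1) and AGGGGGC (part of the CTCF site), on either strand. The positions are chr19:1095326-1095625 (minus strand) for POLR2E, chr3:184361460-184361759 (plus) for the upstream and chr3:184363111-184363410 (plus) for the downstream start of POLR2H, chr22:37953413-37953712 (plus) for POLR2F and chr2:127858106-127858405 (minus) for POLR2D.
POLR2E: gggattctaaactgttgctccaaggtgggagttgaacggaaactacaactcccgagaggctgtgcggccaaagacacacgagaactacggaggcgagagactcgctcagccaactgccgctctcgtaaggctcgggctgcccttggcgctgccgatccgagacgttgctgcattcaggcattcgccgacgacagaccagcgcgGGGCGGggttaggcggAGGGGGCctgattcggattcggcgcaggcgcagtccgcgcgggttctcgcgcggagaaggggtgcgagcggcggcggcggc
POLR2H upstream start: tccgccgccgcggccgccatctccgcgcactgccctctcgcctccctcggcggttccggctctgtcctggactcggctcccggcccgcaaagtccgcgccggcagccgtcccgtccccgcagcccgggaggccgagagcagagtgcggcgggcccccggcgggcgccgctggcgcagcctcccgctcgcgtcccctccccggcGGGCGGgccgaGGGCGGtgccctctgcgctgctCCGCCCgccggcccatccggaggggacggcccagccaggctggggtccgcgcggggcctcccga
POLR2H downstream start: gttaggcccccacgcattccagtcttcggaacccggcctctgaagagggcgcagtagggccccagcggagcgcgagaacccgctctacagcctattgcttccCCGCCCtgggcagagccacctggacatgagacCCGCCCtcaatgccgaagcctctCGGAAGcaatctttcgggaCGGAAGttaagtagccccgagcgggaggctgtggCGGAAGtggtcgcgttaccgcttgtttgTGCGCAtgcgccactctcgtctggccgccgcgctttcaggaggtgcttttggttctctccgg
POLR2F: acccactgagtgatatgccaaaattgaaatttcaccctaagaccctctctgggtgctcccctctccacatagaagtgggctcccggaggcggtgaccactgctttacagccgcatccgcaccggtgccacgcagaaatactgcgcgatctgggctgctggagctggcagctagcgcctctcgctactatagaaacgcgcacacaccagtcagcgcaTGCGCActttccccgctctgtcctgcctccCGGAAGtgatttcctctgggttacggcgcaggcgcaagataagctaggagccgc
POLR2D: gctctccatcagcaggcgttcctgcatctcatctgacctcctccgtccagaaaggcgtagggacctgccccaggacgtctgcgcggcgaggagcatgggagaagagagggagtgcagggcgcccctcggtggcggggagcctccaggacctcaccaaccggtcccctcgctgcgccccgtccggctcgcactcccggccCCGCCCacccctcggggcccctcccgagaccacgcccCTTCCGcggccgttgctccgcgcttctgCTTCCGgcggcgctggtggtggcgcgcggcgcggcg

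An untreated SON peak lay at all 10 genes, against 57.1% of all protein-coding genes. At 3 days 6 genes had a SON peak (background 41%), and at 6 days 5 genes did (background 21.5%). HMGB2 peaks lay at 5 genes (background 23.3%). The SON lists differ in length. With each reduced to its strongest 5583 lines, the length of the shortest, the SON counts were 5 genes untreated, 6 at 3 days and 5 at 6 days. These counts cover different genes. POLR2A and POLR2F, at untreated ranks 8000 and 6077, dropped out of the shortened untreated list. POLR2B and POLR2G stayed in it only through peaks at their neighbours NOA1 and TAF6L (ranks 4616 and 4148). The shares of all genes given here are those of the full lists. In the full lists POLR2A, POLR2F, POLR2G, POLR2H and POLR2I had a SON peak in all 3 SON lists, as did 20.3% of all protein-coding genes. POLR2A, POLR2F and POLR2G had a peak in all 4 lists, as did 10.6%. POLR2B, POLR2C, POLR2D and POLR2L had SON peaks in untreated cells alone. POLR2E had SON peaks in untreated cells and at 3 days. Because peaks of close neighbours fall into the windows, the counts were repeated with only those peaks that lay nearer to the member than to any other protein-coding gene. That left 7 genes with an untreated SON peak, 3 with one after 3 days, 2 after 6 days and 3 with an HMGB2 peak. The shares of all genes above were counted by the wider rule and do not apply to these counts.

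The strongest peaks of the genes were spread widely in the untreated SON and HMGB2 lists and lay in the upper part of the later SON lists. In untreated cells the percentiles ran from 8.26 for POLR2D to 98.5 for POLR2E, with a median of 76.1, where the median over the 11401 protein-coding genes with a peak was 71.9. At 3 days the 6 genes lay between 72.5 and 96.5 with a median of 83.3, against 66.2 over all genes with a peak, and at 6 days the 5 genes lay between 75.4 and 93.4 with a median of 89.8, against 59.3. HMGB2 percentiles ran from 13.7 for POLR2G to 99.9 for POLR2E, with a median of 66.7 against 59.5. Medians over genes with a peak leave out the members without one and say nothing about those. Some of these values come from peaks at neighbours. In untreated cells the 79.3 of POLR2B was a peak at NOA1 and the 81.4 of POLR2G a peak at TAF6L. The strongest untreated peaks overlapping these 2 genes themselves lay at 37.8 and 42.0. The POLR2G values at 3 and 6 days also came from TAF6L. The HMGB2 value of 93.0 at POLR2L came from inside TSPAN4, and that of 36.1 at POLR2A from inside ZBTB4. The SON peaks of POLR2I overlapped the gene, but their summits lay outside it, near a start of TBCB. The medians include such peaks.

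**Figure D1:**
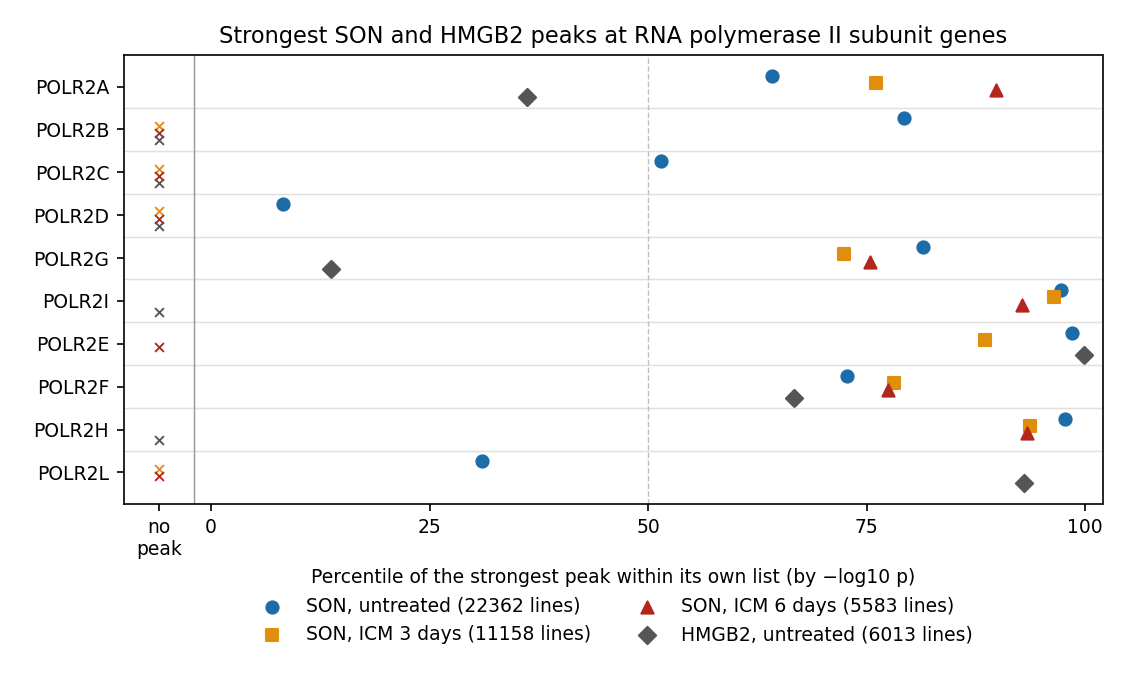
Percentile of the strongest peak of each subunit gene within its own list (x axis, percent of lines with a lower −log10 p), by gene (y axis) and list (symbols); the dashed line marks the 50th percentile and crosses at the left mark genes with no peak in that list. POLR2E, POLR2H and POLR2I lie above 97 in the untreated SON list, and POLR2B, POLR2C, POLR2D and POLR2L have SON peaks in that list alone. The values of POLR2B (SON), POLR2G (SON), POLR2A (HMGB2) and POLR2L (HMGB2) are those of peaks outside the gene, at neighbours. The SON peaks of POLR2I overlap the gene, but their summits lie outside it, near a start of TBCB.

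POLR2A, which encodes the largest subunit with the catalytic centre, had broad SON peaks over its start. The untreated peak (chr17:7483792-7485072) was 1281 bp wide, wider than 99.8% of lines in its list, with a −log10 p of 12.6 in each replicate, rank 8000 and a global IDR of 0.0101. At 3 days the peak was 1177 bp wide with rank 2666, and its −log10 p was 13.6 in replicate 1 and 86.3 in replicate 2. At 6 days the same stretch held 2 separate peaks, with summits 64 bp upstream (rank 1549, IDR 0.124) and 465 bp downstream (rank 568, IDR 0.0258) of the start. The single summits of the untreated and 3-day peaks lay 458 and 454 bp downstream, near the second of these. The untreated peak, the 3-day peak and the upstream 6-day peak also covered the start of ZBTB4, a neighbour transcribed in the opposite direction. The summit of that 6-day peak lay 53 bp from the ZBTB4 start, nearer than the 64 bp to POLR2A. The HMGB2 peak (chr17:7483758-7483987) had a fold of 5.08 and rank 3769, and its summit lay 467 bp upstream of POLR2A, inside ZBTB4.

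POLR2B, the gene of the other large catalytic subunit, had 4 SON peaks in untreated cells and none at 3 days, at 6 days or for HMGB2. Only 1 of them lay at its own start (chr4:56978707-56978943, summit 58 bp upstream), with a −log10 p of 8.41, rank 14001 and an IDR of 0.0178. The strongest (chr4:56977498-56977947, −log10 p 17.5, rank 4616) lay 949 bp outside the gene, with its summit 50 bp upstream of the start of NOA1, a mitochondrial GTPase gene. The other two lay in the gene body more than 40 kb from the start, with summits at 41754 and 44431 bp, ranks 19406 and 13916 and IDRs of 0.431 and 0.13. The value 0.431 is the largest IDR in the untreated list.

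POLR2C had 1 peak, an untreated SON peak at its start (chr16:57462460-57462740, summit 50 bp upstream) with a −log10 p of 10.1 in replicate 1 and 11.3 in replicate 2, rank 10841 and an IDR of 0.0137. The peak was 281 bp wide, where the median of the list was 412 bp. Like POLR2B, it had no peak in the other 3 lists.

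The stalk genes differed from each other. POLR2D had 1 untreated SON peak at its start (chr2:127858043-127858414, summit 24 bp upstream), with a −log10 p of 5.85, rank 20490 and an IDR at the list's largest value, and no other peak. POLR2G had a SON peak at the edge of its span in untreated cells (chr11:62761353-62761752, −log10 p 8.88 and 10 in replicates 1 and 2, rank 12959), and an HMGB2 peak overlapped it (chr11:62761453-62761662, fold 3.67, rank 5171). Its peaks at 3 and 6 days lay elsewhere, 4439 and 4492 bp beyond the gene, over the start of TAF6L, which encodes a component of the SAGA coactivator. The untreated list held a peak there too, with rank 4148, and the ranks at 3 and 6 days were 3071 and 1369. Within 1 kb of its own span, POLR2G therefore had a SON peak in untreated cells alone.

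POLR2I, the smallest of the genes at 1167 bp, had strong and broad SON peaks in all 3 SON lists and no HMGB2 peak. The −log10 p was 45.5 in untreated cells (chr19:36114767-36115649, rank 604, the same value in both replicates). It was 45.2 in replicate 1 and 102.1 in replicate 2 at 3 days, with rank 390 and an IDR of 9.94e-05. At 6 days it was 19.4 and 17, with rank 400 and an IDR of 0.00883. The peaks were 883, 869 and 796 bp wide, and each also overlapped TBCB, a tubulin-folding cofactor gene, with summits 104, 95 and 72 bp upstream of an annotated TBCB start. The summits, at positions 36115364, 36115373 and 36115396, lay outside the POLR2I span, which ends at 36114875. They were thus nearer to that TBCB start than to POLR2I, although the intervals overlapped both genes.

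POLR2E had the strongest untreated SON peak of the 10 genes and their strongest HMGB2 peak. The HMGB2 peak (chr19:1095183-1095732) had a −log10 p of 199 and a fold of 17.2, where the list median was 4.89 and the largest fold was 19.7. It ranked 5 of 6013 by −log10 p and 2 by fold. The untreated SON peak (chr19:1095259-1095751) had a −log10 p of 59.4 in both replicates, rank 339 and an IDR of 0.000821. At 3 days the peak had a −log10 p of 21.0 and 36.8 in replicates 1 and 2, with rank 1276 and an IDR of 0.00152. The 3 summits lay 89 (HMGB2), 98 (SON untreated) and 112 bp (SON 3 days) upstream of the start, and none of the peaks overlapped another protein-coding gene.

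The 6-day list had no line at POLR2E. Its nearest one lay 7152 bp beyond the gene, outside the window, with a −log10 p of 14.9 and rank 591. Of the 339 untreated SON lines up to the rank of the POLR2E peak, all were found at 3 days and 5, this one included, were not found at 6 days. Of the strongest 1000 untreated lines, 79 were not found at 6 days. These counts were made after the POLR2E values were seen.

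POLR2F had 2 separate sites. At its start the SON peaks had a −log10 p of 14.9 in both replicates in untreated cells (chr22:37953325-37953823, rank 6077), of 14.3 and 35.96 at 3 days (rank 2436) and of 11.3 and 17.8 at 6 days (rank 1258, IDR 0.113). The HMGB2 peak there was 175 bp wide with a fold of 5.78 and rank 2893. All of these overlapped C22orf23, which starts 62 bp away in the opposite direction. The other site lay inside the annotated span but 81 kb from the start, with its summits 539 (SON untreated), 508 (SON 3 days) and 588 bp (HMGB2) upstream of the start of POLR2F-AS1, an antisense noncoding RNA. It ranked 8940 for untreated SON, 8314 at 3 days and 1956 for HMGB2, with a fold of 6.09, and was not found at 6 days.

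POLR2H showed SON peaks in all 3 SON lists at 1 of its 2 annotated starts. These starts lie 1651 bp apart, and the summits were 7 (untreated), 28 (3 days) and 9 bp (6 days) upstream of the downstream one. The peak had a −log10 p of 49.5 in both replicates in untreated cells (chr3:184362806-184363586, rank 515, IDR 0.00107), of 31.0 and 53.5 at 3 days (rank 706, IDR 0.000552) and of 20.3 and 17.4 at 6 days (rank 368, IDR 0.00739). No list had a peak over the 300 bases at the upstream start, although this window has the higher GC content of the pair, 81.7% against 63.7%. POLR2H had no HMGB2 peak.

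POLR2L had a weak SON peak over its start in untreated cells (chr11:842408-842945, summit 121 bp upstream, −log10 p 7.77, rank 15437, IDR 0.431), which also covered a start of TSPAN4. Its HMGB2 peak (chr11:844778-845135) was the second strongest of the 10 genes, with a fold of 9.55 and rank 417, but lay 2249 bp beyond the gene inside TSPAN4, a tetraspanin gene. The shared subunits thus ranged from the 99.9th to the 51.8th percentile in HMGB2 peaks at their own starts, with none at the start of POLR2H or POLR2L.

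**Figure D2:**
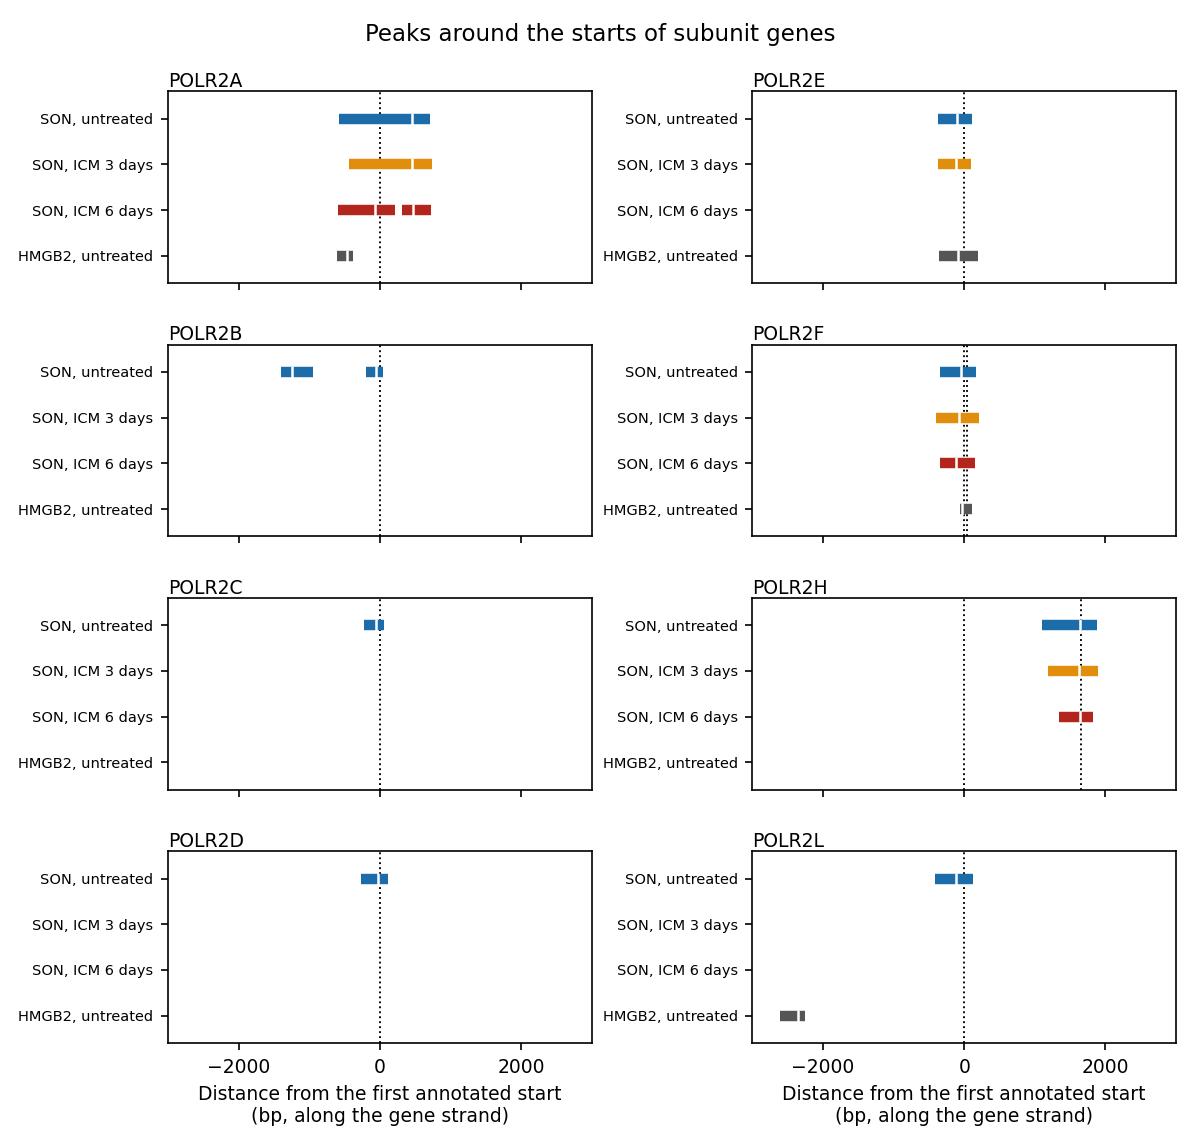
Peaks within 3 kb of the first annotated start (x axis, bp along the gene strand) of the 8 subunit genes with a promoter entry; bars are peak intervals in each list, white ticks their summits and dotted lines annotated starts. SON peaks of POLR2H lie at the downstream start, 1651 bp from the first, and the POLR2A stretch holds 2 peaks at 6 days.

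For the 8 genes with a promoter sequence, the strongest untreated SON peak overlapped the 300-base window of the gene's own start in 7, all but POLR2B (background 57.1% of protein-coding genes with a peak and a promoter entry). At 3 days this held for 4 of 4 genes (background 60.4%) and at 6 days for 2 of 3 (background 48.7%). For HMGB2 it held for 1 of 4, POLR2E (background 49.2%). Only the strongest peak of each gene was scored. The weaker HMGB2 peak at the POLR2F start and the weaker 6-day SON peak at POLR2A also overlapped the windows of these genes. The HMGB2 peaks scored for POLR2A and POLR2L lay inside the neighbours ZBTB4 and TSPAN4.

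By single peaks, 7 of the 15 untreated SON peaks were found at 3 days, 46.7% where 45.7% of all untreated lines were. At 6 days 5 of the 15 were found, 33.3% against 22.2%. In the other direction, all 7 of the 3-day peaks and all 6 of the 6-day peaks overlapped an untreated peak (background 91.6% and 89%). The untreated peaks of the 10 genes not found later included the start peaks of POLR2B, POLR2C, POLR2D and POLR2L and the peak at the edge of POLR2G, with ranks between 10841 and 20490. They also included the peak at NOA1 near POLR2B, at rank 4616 stronger than the POLR2A and POLR2F start peaks that were found later. The start peaks of POLR2A, POLR2E, POLR2F and POLR2H and the peak of POLR2I, with ranks between 339 and 8000, were found at 3 days, and all but that of POLR2E at 6 days.

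The replicates behind the SON lists differed by list. In the untreated list the −log10 p of replicates 1 and 2 was identical for 10 of the 15 peaks of the subunit genes, as it was for 55.9% of all lines. At 3 days replicate 2 was higher in 7 of 7 peaks (56.2% of all lines), and the ratio of the values was highest at POLR2A with 6.33, followed by POLR2F with 2.51 and POLR2I with 2.26. At 6 days replicate 2 was higher in 3 of 6 peaks (46.5% of all lines). How the replicates were made, and whether they share reads, is not given in the sources used here. Of the peaks of the subunit genes, 11 of 15 untreated, 6 of 7 at 3 days and 3 of 6 at 6 days had a global IDR no higher than 0.05. The last were those of POLR2H and POLR2I and the downstream peak of POLR2A.

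**Figure D3:**
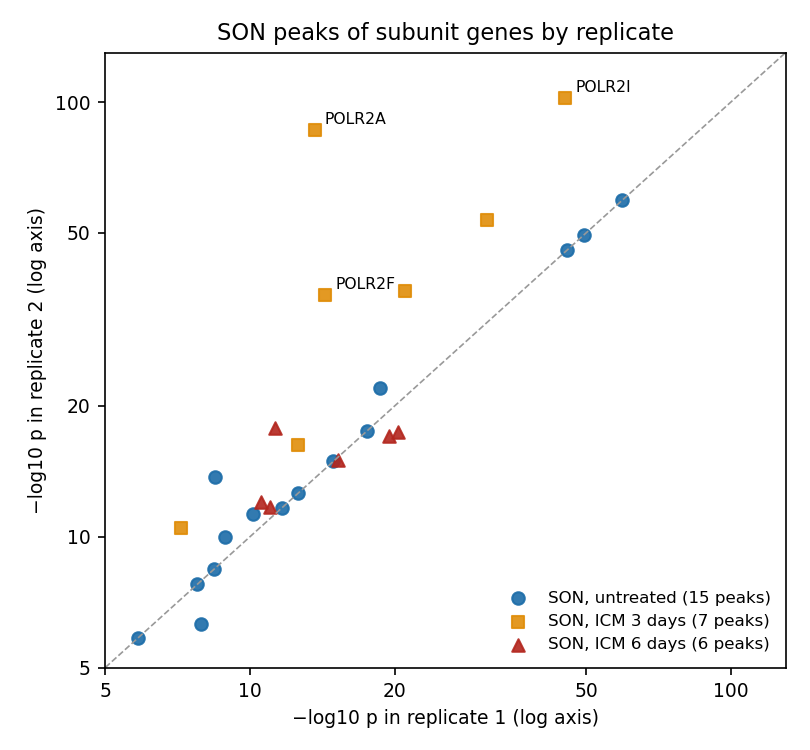
The authors' −log10 p of each SON peak of the subunit genes in replicate 1 (x axis, log scale) and replicate 2 (y axis, log scale), by list; the dashed line marks equal values. The 7 peaks of the 3-day list lie above the line, and 10 of the 15 untreated peaks lie on it.

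HMGB2 peaks of the subunit genes were compared with SON peaks by overlap. Of the 6 HMGB2 peaks of the subunit genes 5 overlapped an untreated SON peak (83.3%, against 62.4% of all HMGB2 lines), and 5 of the 15 untreated SON peaks overlapped an HMGB2 peak (33.3%, against 16.5% of all untreated SON lines). With the strongest 5583 lines of each list, 1 of the 6 HMGB2 peaks overlapped an untreated SON peak. The shares of all lines above are those of the full lists and do not apply to that count. In the full lists 4 of the 6 HMGB2 peaks overlapped a 3-day SON peak (44.2% of all HMGB2 lines) and 2 a 6-day SON peak (23.7%). The HMGB2 peak without SON was the POLR2L peak inside TSPAN4. Summits of the overlapping peaks lay 9 bp apart at POLR2E, 12 bp at the POLR2F start, 49 bp at the distal POLR2F site, 36 bp at POLR2G and 925 bp at POLR2A, where the median over the 3752 HMGB2 lines that met an untreated SON peak was 38 bp. Strong SON peaks did not always come with HMGB2. The untreated peaks of POLR2H and POLR2I, at ranks 515 and 604, had none, while 48.6% of the strongest 500 untreated SON lines had one.

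Other genes of the transcription machinery gave a wider base for these counts. Untreated SON peaks lay at 27 of 31 genes for general transcription factors, 19 of 20 for pausing and elongation factors, 28 of 30 for Mediator subunits, 18 of 19 for the remaining subunits of RNA polymerases I and III and 10 of 10 for polymerase assembly factors. At 6 days the counts were 9, 10, 12, 8 and 2 of the same lists, or 29%, 50%, 40%, 42.1% and 20%, beside the 50% of the RNA polymerase II subunits. HMGB2 peaks lay at 9, 6, 7, 6 and 2 genes, or 29.0%, 30%, 23.3%, 31.6% and 20%. Over all protein-coding genes the shares were 57.1% for untreated SON, 21.5% at 6 days and 23.3% for HMGB2, so the HMGB2 shares of Mediator and the assembly factors were at or below that of all genes. Of 4 further RNA polymerase II genes, POLR2J, POLR2J2, POLR2J3 and POLR2M, only POLR2M had an untreated SON peak (25%), below the share of all genes. POLR2J, POLR2J2 and POLR2J3 are near-identical, so an unlisted peak there cannot be told apart from reads that were not placed. POLR2K was in none of the lists counted. No difference between lists was tested.

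The peaks named for these lists lay in the gene span or within 5 kb of it. For untreated SON the strongest were those of CCNT2, a cyclin of the pause-release kinase (rank 181), and MED14 (rank 262). GTF2A1, a subunit of TFIIA, had rank 264. Lower down lay those of POLR1H, a subunit of RNA polymerase I (rank 1541), and RUVBL1, an ATPase of assembly complexes (rank 2128). CCNT2, MED14 and GTF2A1 had peaks in all 3 SON lists, with percentiles between 91.4 and 99.2. POLR1H did too, at percentiles of 93.1 untreated, 90.1 at 3 days and 31.95 at 6 days, while RUVBL1 had no 6-day SON peak. For HMGB2 the strongest were those of PAF1 and MED29, which share a peak of fold 10.1 and rank 16, and of TAF9 (fold 11.98, rank 95). That of POLR3A, the largest subunit of RNA polymerase III, lay at chr10:78033533-78033975 (fold 5.57, rank 106). The RUVBL1 HMGB2 peak (chr3:128123843-128124137, fold 4.22, rank 2116) was a separate site from its SON peak (chr3:128060860-128061461). Beyond the peak shared by PAF1 and MED29, it was not examined whether the peaks of these genes lay at neighbours. The fold of 17.2 at POLR2E gives no comparison with these, because the subunit genes were chosen with that peak in view.

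**Figure D4:**
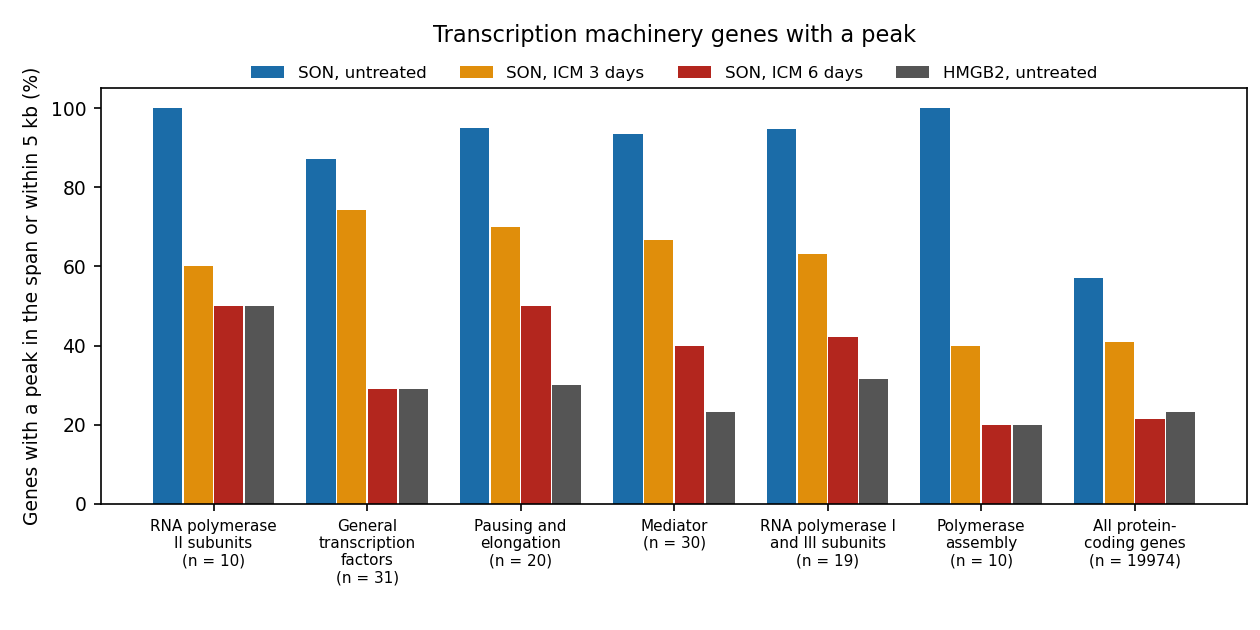
Share of genes with a peak in the gene span or within 5 kb (y axis, percent) for each list of transcription machinery genes and for all protein-coding genes (x axis, number of genes in brackets), by peak list (colours). Untreated SON shares of the lists plotted lie between 87.1% and 100%, against 57.1% of all protein-coding genes; the 4 further RNA polymerase II genes, at 25%, are not plotted.

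By the percentiles of their strongest peaks in the 4 lists (0 without a peak), the protein-coding genes nearest to POLR2E by Euclidean distance were GOLGA5, CACTIN, PIP5K1C, KLF7 and CA11. Each had an untreated SON peak above the 93rd percentile, a 3-day SON peak, no 6-day SON peak and an HMGB2 peak, which ranked 12 at GOLGA5, 26 at CACTIN and PIP5K1C, 295 at KLF7 and 90 at CA11. CACTIN and PIP5K1C are neighbours that share these peaks. Likeness here covers 4 lists only.

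The promoter windows of the 8 genes (10 windows, since POLR2F and POLR2H have 2 starts each) had a median GC content of 63%, against 62.3% over the 22156 windows of protein-coding genes and 65% over the 7523 met by an untreated SON peak. They held a median of 27.5 CG pairs, against 21 and 27. Of all these windows 34% were met by an untreated SON peak, 24.1% by a 3-day peak, 9.56% by a 6-day peak and 11.2% by an HMGB2 peak. Of 8 motifs searched on both strands, GGGCGG was found at 6 of the 8 genes, CGGAAG at 5, TGCGCA at 4 and AGGGGGC at POLR2E alone. Counted by window, as the shares that follow are, they were found in 7, 6, 5 and 1 of the 10. The 2 windows of POLR2F overlap. All windows of protein-coding genes held these in 56.3%, 23.7%, 9.88% and 17.5%, and the windows met by an untreated SON peak in 73.2%, 40.5%, 19.4% and 19.01%. None of the 10 windows held CCAAT (the NF-Y motif, in 34.6% of all windows), AAGATGG (YY1, in 6.04%), CTCGCGA (in 3.08%) or TATAAA (the TATA box, in 9.46%). In the sequences shown above, the POLR2H window with the SON peak held matches for SP and KLF factors, ETS factors and NRF1, and its upstream window held matches for SP and KLF factors only. A match describes the letters of the window and is no evidence of a bound factor.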

How the data were processed

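Of 6 samples, 4 had a peak list that was used here, each its own group by title. The submitters' processing notes name bcl2fastq 2.17, Bowtie2, deepTools, MACS2 and the build hg38. Roles, parameters, the control, read filters and depth are not given in the sources used here. Per the deposited columns, SON lists have the layout of the IDR tool for 2 replicates. The authors' −log10 p of a line is the lower of both replicates' values, their IDR is given as −log10, and the authors' score is its scaled form. For HMGB2 the authors deposited a fold ratio, −log10 p, −log10 q and a score of 10 times the latter, and the peak names state a q cutoff of 0.03.

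Members and gene lists were chosen with earlier results of these data known. Gene spans, starts and promoter sequences came from RefSeq tables of GRCh38.p14, without exons, so exonic and intronic positions are not given. Overlap meant at least 1 bp, and the alternatives tried were other windows, nearest-gene assignment, stricter IDR, q, fold or strength limits and stricter overlaps. The counts by strongest untreated lines were added after the data were seen. All lines, including those on contigs, entered ranks. Named were all members with their strongest peaks, neighbours that share a peak, the gene with the strongest peak of each other list, and the 5 genes most like POLR2E. The counting was tested on simulated data. Python 3.11.15, numpy 2.4.6 and pandas 2.3.3 were used.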

Additional observations from a re-analysis of the deposited data

How the results depend on the processing

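The 4 counts of subunit genes with a peak, and the counts of untreated SON peaks found at 3 and at 6 days and of HMGB2 peaks met by untreated SON, were recomputed with other windows, thresholds and overlaps. The other overlaps, the counts over several lists and those of other gene lists were not. Of 62 alternatives, 40 stayed within 1.5 times the count (or, for percentiles, within counting error) and 22 moved. Of the untreated SON list, 5 genes had a peak among the strongest 5583 lines, where 6 had one at 3 days and 5 at 6 days, and 6 genes had an untreated peak at a global IDR of at most 0.01. With only peaks nearest to the member, counts were 3 at 3 days, 2 at 6 days and 3 for HMGB2. At 6 days an IDR of at most 0.05 left 3 genes and one of at most 0.01 left 2. For HMGB2, 3 genes had a peak in the gene span alone and 3 in the stronger 50% of the list. Among the strongest 5583 lines of each list, 4 of 5 untreated SON peaks were found at 3 days and 3 of 5 at 6 days, and 1 of 6 HMGB2 peaks met untreated SON. At an IDR of at most 0.05, 3 of 11 were found at 6 days, and in the stronger 50% of the lists 3 of 4 HMGB2 peaks met SON. Fewer peaks enter under each of these settings, and the shares over all genes or lines given above do not apply to them. The median percentile of the members with a SON peak, with the values of replicate 1 or replicate 2 alone or the IDR among the alternatives, lay between 72.9 and 76.1 in untreated cells, 82.6 and 88.7 at 3 days, and 84.6 and 89.8 at 6 days. The depth of the lists is unknown, so a missing line means that no peak was listed, not that SON or HMGB2 was absent. No paired analysis was possible because each group has 1 list and the labels give no replicate numbers. Only peak lists were used, so peaks could not be called again with a replicate left out.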

Other observations

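POLR2J, POLR2J2 and POLR2J3, near-identical genes on chromosome 7 for another subunit of RNA polymerase II, had no peak in any of the 4 lists. How reads that map to several places were treated is not given in the sources used here, so an unlisted peak there cannot be told apart from reads that were not placed. POLR2M, which encodes a polymerase-associated protein, had an untreated SON peak of −log10 p 27.4 (rank 1920), a 3-day SON peak of 11.8 (rank 3401), and neither a 6-day SON peak nor an HMGB2 peak.

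Of the peaks counted within 5 kb of a gene, the farthest were those over TAF6L beyond POLR2G, at 4439 to 4492 bp. The nearest outside lay beside POLR2A, 6031 bp away in the untreated SON list (rank 7502), 6019 bp at 3 days (rank 6629) and 6084 bp for HMGB2 (rank 1448), and beside POLR2G at 6 days, 7126 bp away (rank 5269).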
